A study of Mus musculus with 12 samples.

Results

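The regions described here were m6A peaks that lay in the coding sequence and wholly inside a long internal exon. A peak was taken when it had 1 exon block, lay inside 1 exon of at least 400 nt that was neither the first nor the last of its transcript, and had its middle in the coding sequence more than 100 nt from the start and stop codons. The transcript was the one with the longest coding sequence of the gene in the GENCODE M21 annotation of GRCm38. This rule took 4611 of all 41694 peaks and of 23728 coding peaks, and they lay in 988 exons of 845 genes. The rule used exon length and position alone, with no measured value.

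The peaks came from methylated RNA immunoprecipitation sequencing (MeRIP-seq) of the hearts of male C57BL/6 mice, in which RNA cut into fragments of 100 to 200 nt was pulled down with an antibody against m6A and compared with the RNA before pull-down, the input. The young group was 6 to 7 weeks old and the aged group 26 to 27 months, and no mouse carried a transgene or received an agent as far as the labels go. Each age had 3 immunoprecipitates and 3 inputs, 12 libraries in all, and the authors called 1 peak list from each immunoprecipitate with its input, which gave 6 lists. The labels speak of 3 mice per group, whereas the methods describe each sample as a mixture of 3 hearts, so a list is called a heart here without saying how many animals it stands for. A p-value between ages measures only the spread between these samples.

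The modification m6A is a methyl group on adenosines inside messenger RNA. It is placed during transcription by the METTL3 and METTL14 complex, mostly on an A within short sequences such as GGAC, is removed by FTO and ALKBH5, and is bound by YTH proteins that act on splicing, export, translation and decay. Proteins left by splicing at exon junctions keep the writer away from sequence close to a junction, and m6A is therefore known to lie mainly in long internal exons and around the stop codon in last exons.

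A peak list holds positions and an unadjusted p-value for each peak, with no read count and no depth. A region that is missing from a list was therefore not called there, which is not the same as unmethylated. The length of a list, which ran from 4114 to 9367 peaks, may depend on depth, and depth is unknown. In whole hearts, fewer cells of a type and less RNA per cell cannot be told apart. The tissue label was checked against defining genes. All 10 cardiomyocyte markers had a peak in at least 1 heart and 6 of them had peaks in all 6 hearts. The 4 endothelial markers had peaks in all 6 hearts, the 5 fibroblast markers had peaks in some hearts but none in all 6, 2 of 3 smooth muscle markers and 1 of 4 leukocyte markers were called in any heart, and Tagln, Ptprc, Cd68 and Adgre1 had no peak. No list was identical to another, and 96.0% of the peaks had lengths that were 0 or 1 nt over a multiple of 30 nt, the step of the windows in which they were called. The shortest of them measured 119 nt and the longest 2127 nt.

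The sequences below are stretches that the peaks of all 6 hearts shared. They are 6 of the 10 regions called most strongly in every heart, those in which the best peak of each heart lay inside the exon, and are shown because the antibody enriched this sequence in all hearts with the lowest p-values. Each is the transcribed strand, 5′ to 3′, written as DNA from the GRCm38 genome, with at most 200 bases from the middle of the shared stretch. Capitals mark GGAC. All 6 are wholly coding and lie within a single exon.
Ttn exon 309, chr2:76739842-76740041, minus strand: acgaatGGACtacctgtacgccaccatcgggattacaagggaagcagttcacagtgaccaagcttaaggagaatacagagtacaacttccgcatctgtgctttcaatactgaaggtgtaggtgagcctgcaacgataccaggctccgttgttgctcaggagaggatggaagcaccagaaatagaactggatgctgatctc
Ttn exon 309, chr2:76752314-76752494, minus strand: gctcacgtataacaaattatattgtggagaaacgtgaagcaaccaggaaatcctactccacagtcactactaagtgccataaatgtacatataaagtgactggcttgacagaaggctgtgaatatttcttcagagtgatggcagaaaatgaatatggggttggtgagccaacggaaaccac
Rnf213 exon 28, chr11:119440673-119440872, plus strand: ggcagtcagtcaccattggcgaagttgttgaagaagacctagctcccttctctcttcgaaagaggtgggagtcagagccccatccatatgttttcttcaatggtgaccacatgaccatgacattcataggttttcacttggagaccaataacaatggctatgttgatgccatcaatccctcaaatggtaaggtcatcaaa
Heg1 exon 6, chr16:33726692-33726891, plus strand: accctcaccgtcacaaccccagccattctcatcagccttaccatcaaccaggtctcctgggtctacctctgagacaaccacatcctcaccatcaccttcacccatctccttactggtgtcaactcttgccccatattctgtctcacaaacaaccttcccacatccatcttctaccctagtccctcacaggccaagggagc
Sparcl1 exon 4, chr5:104092954-104093153, minus strand: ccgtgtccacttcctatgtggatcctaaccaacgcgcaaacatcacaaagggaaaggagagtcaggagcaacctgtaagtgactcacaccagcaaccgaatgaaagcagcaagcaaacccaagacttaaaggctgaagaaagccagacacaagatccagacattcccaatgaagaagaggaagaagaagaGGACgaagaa
Nktr exon 13, chr9:121749029-121749228, plus strand: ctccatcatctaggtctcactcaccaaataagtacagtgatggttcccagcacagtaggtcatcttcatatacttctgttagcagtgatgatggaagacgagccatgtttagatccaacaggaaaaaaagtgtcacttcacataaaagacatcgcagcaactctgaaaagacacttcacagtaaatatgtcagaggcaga

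Few capitals appear in these stretches. The stretch of Ttn that begins at position 76739842 and that of Sparcl1 each held 1 GGAC, whereas the other Ttn stretch and those of Rnf213 and Nktr held none, also over the full 301 nt and 211 nt that the 6 hearts shared in the last 2 genes. The Heg1 stretch, printed in part, held 1 over its full 689 nt. Purines made up only 34.5% of the printed bases of Heg1 and 49.5% to 64.5% of those of the other 5. In 144 regions that were called in all 6 hearts, consisted only of these coding peaks and had a shared stretch of at least 30 nt, the stretch had a median length of 181 nt, and 89 (61.8%) held GGAC while 55 did not. GGACT, the form of the motif followed by T, was in 27 of them (18.8%). No GGAC in a stretch says only that these letters are not in this window.

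The next 3 stretches were shared by the peaks of the 3 aged hearts in regions that no young heart called, and are shown as examples of calls that separated the ages. They are 3 of the 5 best-ranked regions of this kind. The best-ranked had no base that all 3 hearts shared, and the next, in Alpk2, is not shown.
Xirp2 exon 7, chr2:67510017-67510137, plus strand: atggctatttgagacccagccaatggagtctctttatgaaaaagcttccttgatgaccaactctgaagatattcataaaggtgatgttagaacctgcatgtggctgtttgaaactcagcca
Ryr2 exon 90, chr13:11595686-11595776, minus strand: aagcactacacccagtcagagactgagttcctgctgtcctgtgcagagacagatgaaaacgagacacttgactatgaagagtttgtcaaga
Kmt2d exon 32, chr15:98853127-98853326, minus strand: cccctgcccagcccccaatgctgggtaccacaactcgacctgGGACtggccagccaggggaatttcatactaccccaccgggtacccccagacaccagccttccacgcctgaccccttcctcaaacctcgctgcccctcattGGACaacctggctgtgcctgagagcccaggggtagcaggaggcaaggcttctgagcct

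The stretches of Xirp2 and Ryr2 held no GGAC, and the full 451 nt shared by the aged hearts in Kmt2d held 4. Xirp2 encodes an actin-binding protein of the intercalated disc, Ryr2 the calcium release channel of the sarcoplasmic reticulum and Kmt2d a histone H3 lysine methyltransferase.

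Aged hearts had more of these peaks than young hearts. The lists held 730, 623 and 569 of them in the 3 young hearts and 942, 845 and 902 in the 3 aged hearts. Every aged heart was above every young heart, with means of 641 ± 81.9 (SD, n = 3) and 896 ± 48.7 (SD, n = 3). The difference of 256 peaks gave p = 0.1 in a two-sided exact permutation test, the smallest p that 3 against 3 hearts allow. The same order was seen for the exons that held them. There were 506, 447 and 404 such exons in the young hearts and 625, 580 and 614 in the aged hearts, which differed by 154 exons (p = 0.1, exact permutation test). When the same number of best-ranked peaks was taken from each list, 4114 per heart, the order turned, with 41 fewer peaks and 37 fewer exons per aged heart than per young heart on average (p = 0.5 and p = 0.3, exact permutation tests).

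The long internal exons did not take a larger share of the coding peaks in aged hearts. They held 19.3%, 21.9% and 22.4% of the coding peaks in the young hearts and 18.2%, 16.6% and 21% in the aged hearts. These shares overlapped between the ages, with means of 21.2% ± 1.67 and 18.6% ± 2.20 (SD, n = 3 each), and the difference of -2.58 percentage points gave p = 0.2 in the exact permutation test. Marker peaks also differed in number between the ages, and so did the whole lists. All peaks of a list numbered 4114 to 6505 in the young hearts and 7284 to 9367 in the aged hearts. The summed peaks of the 5 fibroblast markers were 1 to 2 per young heart and 4 to 6 per aged heart, those of the 4 endothelial markers 7 to 11 and 16 to 20, those of the 3 smooth muscle markers 0 to 3 and 7 to 8, and those of the 10 cardiomyocyte markers 52 to 90 and 77 to 109. The 4 leukocyte markers had 0 to 1 in either age. Their part in the difference in peak number was not tested.

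**Figure D1:**
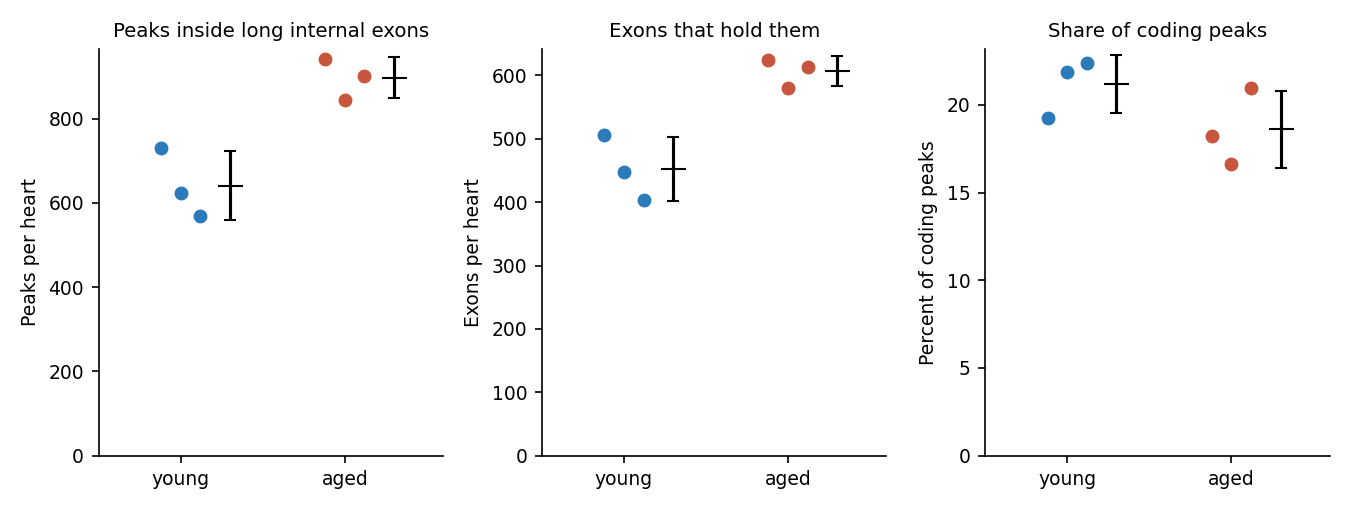
Peaks inside long internal exons per heart (left), exons that held at least 1 of them (middle) and their share of the coding peaks of the same heart (right). Points are the 3 hearts of an age, and the black mark is their mean ± SD. The aged hearts lie above the young hearts in the first 2 plots, at 845 to 942 against 569 to 730 peaks, and overlap with them in the third.

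Long internal exons were few but took a large part of the coding sequence. Among the genes with a peak in any heart there were 2098 of them in 1576 genes, 2.93% of the internal coding exons and 19.3% of internal coding sequence, and 988 (47.1%) held at least 1 of the peaks described here. The exons that held one had a median length of 960.5 nt, and 70.3% of the peaks lay in exons of 1000 nt or more. A total of 195 exons had such a peak in all 6 hearts, and 264 had one in a single heart.

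The density of coding peaks was about the same in internal exons under 300 nt and higher in longer ones. Counting the middles of all coding peaks, the mean over 6 hearts was 0.266 ± 0.0913 peaks per kb of coding sequence (SD, n = 6) in exons under 100 nt, 0.270 ± 0.0927 from 100 nt and 0.261 ± 0.0784 from 200 nt. From 300 nt it was 0.333 ± 0.0925, from 400 nt 0.401 ± 0.116, from 1000 nt 0.449 ± 0.0932 and from 5000 nt 0.541 ± 0.0893. The share of exons with a coding peak inside them went from 10.5% per heart at 400 to 599 nt to 75.8% at 5000 nt or more. Just outside the limit of 400 nt, 56 of 365 exons of 350 to 399 nt (15.3%) had a coding peak inside them in any heart, and just inside it 50 of 221 exons of 400 to 449 nt (22.6%) did. A longer exon has more room for a peak, so these shares rise with length even where the density is even.

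**Figure D2:**
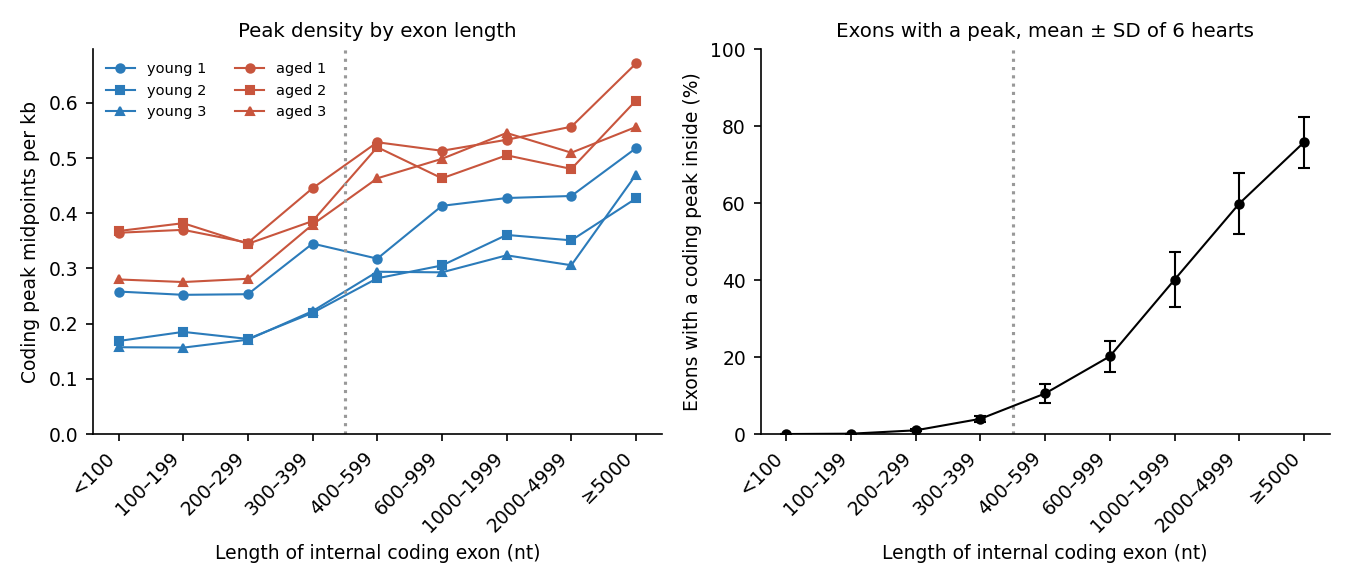
Left, middles of coding peaks per kb of coding sequence against the length of the internal exon, 1 line per heart. Right, the share of exons with a coding peak wholly inside them, mean ± SD of 6 hearts, which rises with exon length even at an even density. The dotted line is the limit of 400 nt. Density is flat below 300 nt and higher from there on in all 6 hearts.

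The same held when only the 1492 genes with exons of both kinds were used, as long as the middles of all coding peaks were counted. Peaks and sequence were summed over these genes, so no ratio was formed within a single gene and differences between genes remain in it. The density in long exons was 1.87, 2.23 and 2.20 times that in shorter ones in the young hearts and 1.62, 1.57 and 2.15 times in the aged hearts. All 6 ratios were above 1, with a mean log2 ratio of 0.94 ± 0.23 (SD, n = 6) and p = 0.03125, the smallest p that a two-sided exact permutation of the 6 signs allows. The ratio did not separate the ages, with a difference in log2 ratio of -0.25 between aged and young (p = 0.2, exact permutation test). The size of the ratio depended on how peaks near junctions were counted. With only peaks wholly inside an exon, divided by the start positions that a peak of 211 nt has in it, the mean log2 ratio was 0.07 (p = 0.53125, exact sign-flip permutation test). In that count, peaks in exons too short for such a start position add to the shorter exons without adding to the divisor. With those exons left out, a choice made after seeing the data, it was 0.45 (p = 0.03125, exact sign-flip permutation test).

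Within long internal exons, coverage by peaks was lowest next to the junctions. Of the coding bases less than 25 nt from the nearer junction, 7.22%, 4.52% and 4.78% were under a peak of any kind in the young hearts and 9.85%, 9.56% and 8.27% in the aged hearts. At 200 to 299 nt from it these shares were 12.3%, 8.04% and 8.78% and 16.3%, 14.1% and 15.8%. Every heart had the higher share in the interior. On average coverage went from 7.37% next to the junction to 12.6% at 200 to 299 nt and to 15.2% at 1000 nt or more. Exons of 1000 nt or more alone gave much the same course, with 7.75% next to the junction and 13.0% at 200 to 299 nt. The peaks described here measured at least 119 nt, so a base next to a junction can be covered only by a peak that ends near the junction or crosses it. The part that this geometry has in the difference was not tested. Within the exons the middles of the peaks were spread nearly evenly, with 32.9% in the first, 31.6% in the middle and 35.5% in the last of 3 equal parts.

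**Figure D3:**
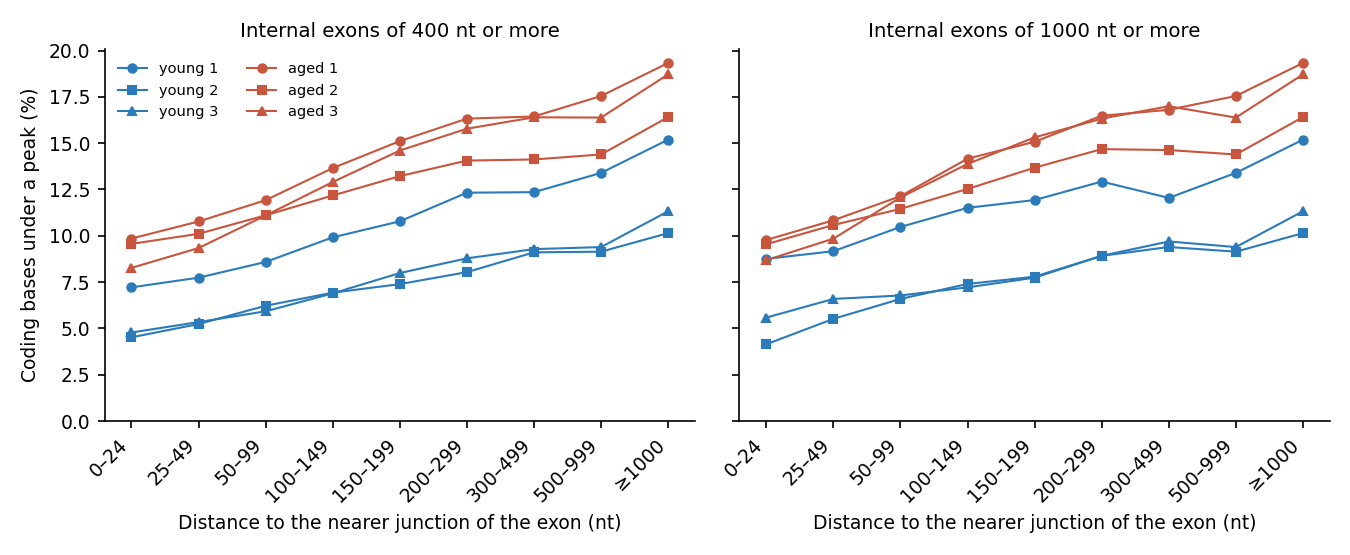
Share of the coding bases of long internal exons that were under a peak, against the distance to the nearer exon junction, 1 line per heart. Left, all exons of 400 nt or more. Right, those of 1000 nt or more. In all 6 hearts coverage is lowest in the first 25 nt and higher at 200 nt and beyond.

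The peaks in long internal exons were found again in other hearts more often than other coding peaks. In the young hearts they overlapped a peak of 3.34, 3.61 and 3.69 of the 5 other hearts on average, and other coding peaks one of 2.91, 3.12 and 3.25. In the aged hearts these means were 2.81, 2.95 and 2.91 against 2.42, 2.36 and 2.76. The difference was positive in all 6 hearts, with a mean of 0.415 ± 0.147 hearts (SD, n = 6; p = 0.03125, exact sign-flip permutation test). An overlap between a pair of hearts counts for both of them. The 6 differences are therefore not independent, as the test takes them to be, and this p is only a description. They also had lower p-values. When the peaks of a list were ranked by p and the rank written as a percentile, their median was 42.8, 41.8 and 40.0 in the young hearts and 42.9, 44.5 and 43.6 in the aged hearts, against 47.2 to 48.3 for the other coding peaks. The mean difference was -5.08 ± 1.64 percentile points (p = 0.03125, exact sign-flip permutation test). Among peaks with p at or under 1e-05 it was -1.04 (p = 0.09375, exact sign-flip permutation test). Without Ttn, whose exons held more of these peaks than any other gene, it was -3.37 (p = 0.03125, exact sign-flip permutation test).

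Set against single classes, in 9 comparisons chosen after the data were seen and adjusted together, 7 passed an adjusted p of 0.05. Those of the number of other hearts with an overlapping peak have the limit given above, that their differences are not independent. Compared with coding peaks of 2 or more exon blocks, these peaks held 0.660 ± 0.152 more GGAC per kb and were found in 0.392 ± 0.168 more of the other hearts (adjusted p = 0.0402 each, exact sign-flip permutation test). The difference in their median percentile of p was -2.14 ± 1.51 points, below 0 in 5 of 6 hearts (adjusted p = 0.0625, exact sign-flip permutation test). Compared with coding peaks in the last exon, where m6A is classically dense, they were found in 0.151 ± 0.155 more hearts (adjusted p = 0.0402, exact sign-flip permutation test), whereas their GGAC density was 0.339 per kb lower in the mean, lower in 5 of 6 hearts (adjusted p = 0.0625, exact sign-flip permutation test). Their median percentile of p was 9.97 points lower than in the last exon and 13.4 points lower than that of single-block peaks of the 3′ untranslated region (adjusted p = 0.0402 each, exact sign-flip permutation test). Against the latter they held 1.54 ± 0.151 more GGAC per kb and were found in 0.412 ± 0.320 more hearts (adjusted p = 0.0402 each, exact sign-flip permutation test).

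Peaks of the 6 hearts that shared a base of exon were joined into regions, and 1518 regions held at least 1 of the peaks described here. A total of 299 of them (19.7%) had a peak in all 6 hearts, in 240 genes. Of all 15699 regions 10.6% did, and of 7458 other regions with a coding peak also 10.6%. Only 30.7% were called in 1 heart, against 42.9% of all regions. Most regions were made of these peaks alone (1258, or 82.9%), and 230 of the other 260 (88.5%) also held a peak of 2 or more exon blocks. Long peaks join more easily, and the shares are given as a description. Between any 2 hearts, 42.9% to 57.9% of the regions that either had called were shared, with 43.5% to 48.8% for pairs of young hearts, 53.5% to 57.9% for pairs of aged hearts and 42.9% to 54.1% for pairs of different age.

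A small number of regions separated the ages. A total of 50 regions (3.29%) were called in every aged heart but in none of the young ones, against 2.68% of all regions and 2.80% of the other regions with a coding peak. In the other direction 1 region (0.0659%) was called in every young heart but in none of the aged ones, against 0.0446% of all regions. The share of regions called in aged hearts alone was thus near the background. With the same number of best-ranked peaks from each list the counts were 16 and 4. Of the 50 regions, 49 had a base that all 3 aged hearts shared. They lay in 46 genes, counting both Gm42715 and Srcap, which overlap and were both listed for 1 region. For 40 of the 50 regions the gene had some peak in a young heart. For 18 the same exon held coding peaks of another region in which a young heart had a peak of any kind.

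The best-ranked of the regions called in aged hearts alone was in Xirp2 at chr2:67516245-67516724, with p of 2.5e-28, 6.3e-34 and 3.2e-29 in the 3 aged hearts. It was the exception in which the 3 peaks formed a chain with no base in common. A second Xirp2 region at chr2:67509987-67510196 had p of 2e-38, 3.2e-57 and 4e-12. Both lay in exon 7 of the 9 exons of this gene, and of the 10 regions in this exon 4 were called in all 6 hearts. Alpk2, which encodes an alpha-kinase of heart muscle, had such a region in exon 5 of 13 with p of 4e-15, 1.3e-44 and 1.3e-23. The Ryr2 region in exon 90 of 105 (chr13:11595656-11595896) had p of 1e-10, 1e-17 and 5e-18, and these 3 peaks were the only ones of their kind in Ryr2. The Kmt2d region in exon 32 of 55 (chr15:98853002-98853512) had p of 2.5e-14, 1.2e-10 and 1.3e-11. None of the 5 was called in a young heart at the authors' limit of p = 0.05, and no read counts were used to ask how far below it the young hearts lay.

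The region called in young hearts alone was in Sp1, which encodes a zinc finger transcription factor, at chr15:102409026-102409475. Its p-values were 3.5e-05, 0.0062 and 3.1e-05, weaker than those above, and no base of it was shared by all 3 young hearts. When peaks had to share at least 50% of the shorter peak to be joined, no region was called in young hearts alone. Of the 845 genes, 139 (16.4%) had these peaks in more young than aged hearts, 406 (48.0%) in more aged than young hearts and 300 (35.5%) in as many of either age. The leading 5 of the first kind by number of hearts and peaks were Prpf4b and Skil with 6 peaks each, Sp1 with 5, and Adgrg1 and Ahctf1 with 4 each, all called in 3 young hearts and 1 aged heart. They encode a kinase of the spliceosome, a co-repressor of TGF-beta signalling, Sp1 itself, an adhesion receptor and a nuclear pore assembly factor. Of the 845 genes, 23 had these peaks in every aged heart but in none of the young ones, and 0 the other way round. Such gene counts are not given here for other coding peaks. By region, 32.4% of those with these peaks were called in aged hearts only and 9.49% in young hearts only. Over all regions these shares were 41.7% and 13.9%, so the lean to aged hearts was not particular to these peaks.

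The 3 genes with the most peaks were all muscle genes. Ttn, which encodes the giant elastic protein titin that spans the sarcomere from Z-disc to M-band, had 186 of them, 30, 25 and 33 in the young hearts and 30, 38 and 30 in the aged hearts. The ages overlapped between 30 and 33 peaks. The 186 peaks fell into 45 regions in 15 of its 20 long internal exons. The longest internal exon with a peak, exon 309 of 347 in Ttn (chr2:76736064-76753169, 17106 nt, wholly coding), held 83 of them in 18 regions. Of these 18 regions 7 were called in all 6 hearts, 3 in a single heart and 0 in aged hearts alone. Peaks covered 19.7%, 13.4% and 29.2% of this exon in the young hearts and 19.9%, 22.4% and 22.9% in the aged hearts. Coverage differed more among the young hearts than between the ages.

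Xirp2 and Cmya5 followed. Xirp2 had 12, 9 and 10 peaks in the young hearts and 11, 12 and 12 in the aged hearts, all in its exon 7 of 9265 nt. Cmya5, which encodes myospryn, a costamere protein that anchors protein kinase A, had 8, 6 and 9 in the young hearts and 12, 8 and 10 in the aged hearts, all in its exon 2 of 9310 nt. The number overlapped between the ages in both genes. Of the Cmya5 exon 12.3% was under a peak in all 6 hearts and 63.9% in at least 1, and of the Xirp2 exon 20.8% and 86.1%. In Xirp2 coverage was 55.1%, 27.9% and 48.0% in the young hearts and 59.6%, 56.1% and 68.0% in the aged hearts. The 3 aged hearts lay above the 3 young ones there, which was noticed after the values were seen.

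**Figure D4:**
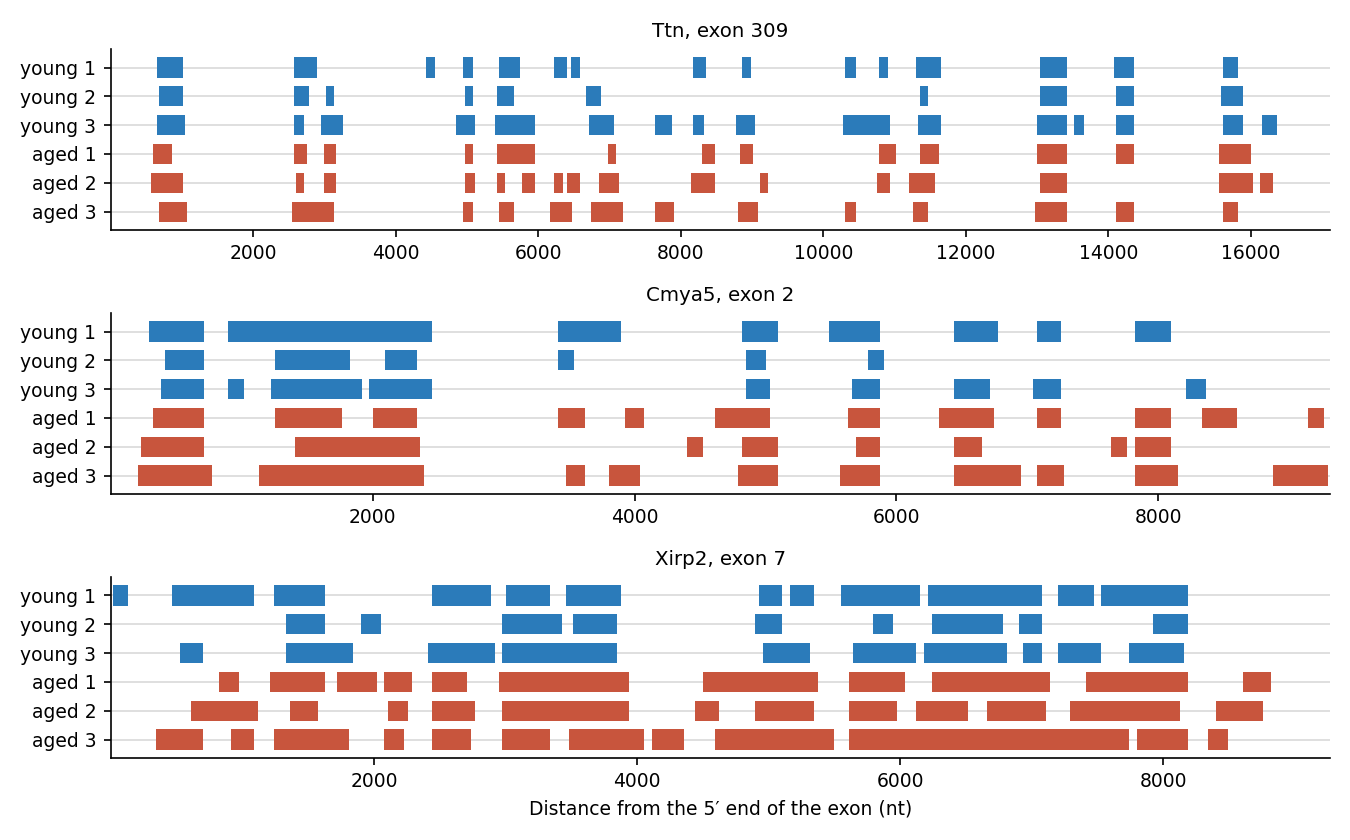
Peaks along 3 long internal exons of muscle genes, 1 row per heart (blue young, red aged), against the distance in nt from the 5′ end of the exon. Bars are peaks to scale. In Ttn exon 309, 7 of the 18 regions line up in all 6 rows. In Xirp2 exon 7 the bars cover 56.1% to 68.0% of the exon in the aged rows and 27.9% to 55.1% in the young rows. Coverage of long internal exons in general was also higher in the aged hearts.

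Some exons of similar length differed widely in their number of peaks. The next longest exon with a peak, in Stard9 (9837 nt), a kinesin gene, had 4 peaks in 3 hearts, and that of Map1a (8104 nt), a microtubule-associated protein best known from neurons, had 2. Ank2, which encodes ankyrin-B, had 4 in an exon of 6198 nt. Brca2, a gene of DNA break repair, had none. The level of these transcripts was not measured here, and its part in these counts was not tested.

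Among the 10 genes with the most peaks, which together held 577, the remaining 7 had broad roles. Golgb1, which encodes the Golgi tether giantin, had 48, Ankrd11, a chromatin regulator, 41, Bod1l, which protects replication forks, 40, Srrm2, a splicing factor of nuclear speckles, 38, Kmt2d 37, Tacc2, a microtubule-associated protein, 36 and Dst, a linker of cytoskeletal filaments, 32. All 10 genes had peaks in all 6 hearts. In Kmt2d the young hearts had 5, 4 and 3 and the aged hearts 9, 8 and 8. These do not overlap, but neither do the totals over all genes, 569 to 730 and 845 to 942. How many genes did not overlap is not given here. In Srrm2 the young hearts had 5, 8 and 8 and the aged hearts 7, 5 and 5.

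The 10 regions called most strongly in every heart lay in 8 genes. Rnf213, which encodes a very large ubiquitin ligase, Heg1, a membrane protein of heart and vessel development, Cobll1, an actin-binding protein, Art3, a member of the ADP-ribosyltransferase family, Sparcl1, a matricellular protein, and 3 regions of Ttn were listed at 0, the lowest possible p-value, in all 6 hearts. Nktr, which encodes a cyclophilin-related protein, was listed at 0 in 5 hearts and at 1e-293 in the sixth, and Zfp106, an RNA-binding zinc finger protein, at 0 in 5 hearts and at 1e-232 in the other. These are the best peaks of each heart in the region, some of which crossed a junction. Values listed as 0 have no order among themselves. In all, 91 of the peaks had a p-value listed at 0.

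The genes were also read by function, in lists chosen with earlier results of these data in view. Of all 1576 genes with a long internal exon and a peak, 845 (53.6%) had one of the peaks described here, 240 (15.2%) a region called in all 6 hearts and 46 (2.92%) one called in aged hearts alone, with a median of 3 peaks per gene that had any. For the 33 sarcomere and cytoskeleton genes of this kind these were 25 (75.8%), 12 and 2, with a median of 5. For 14 ion channel, calcium handling and A-kinase anchor genes they were 11 (78.6%), 4 and 1. The anchors led that list, with 23 peaks each in Akap12 and Akap6, 19 in Akap13 and 11 in Akap9, and all 4 had peaks in all 6 hearts.

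Chromatin and transcription genes had 56 of 76 (73.7%) with a peak, 24 with a region in all 6 hearts and 7 with one in aged hearts alone, and a median of 7. Next to Ankrd11 and Kmt2d, the histone H3 methyltransferase genes Setd2 with 31 and Ash1l with 30 led it. Ash1l had 6, 7 and 5 peaks in the young hearts and 5, 4 and 3 in the aged hearts, which met at 5. RNA processing and translation genes had 21 of 24 (87.5%) with a peak and 9 with a region in all 6 hearts, led by Srrm2, Son with 29, Prrc2c with 22 and Ylpm1 with 19. DNA repair and mitosis genes had 13 of 16 (81.2%), led by Bod1l, the kinetochore gene Cenpf with 24, the centrosome gene Cep350 with 15 and the damage-response gene Mdc1 with 8.

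The lists of m6A regulators and of extracellular matrix and receptor genes had a median of 2 peaks per gene that had any, against 3 over all genes. Among 7 m6A writers, erasers and readers with a long internal exon, 5 (71.4%) had a peak, against 53.6% of all genes. None of them had a region in all 6 hearts or in aged hearts alone. Over all genes these shares were 15.2% and 2.92%, and 7 genes are too few to set against them. Zc3h13, a member of the writer complex, had 4 peaks in 4 hearts, the reader genes Ythdc1 and Ythdf1 had 2 each, and Ythdf2 and Ythdf3, also readers, had 1 each. Of 14 matrix and receptor genes 6 (42.9%) had a peak. Bmpr2, a BMP receptor gene, had 8 in 5 hearts. Vcan, which encodes the proteoglycan versican, had 5, all in the 3 aged hearts, and the receptor genes Adgrl2 and Tgfbr2 had 2 each.

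The motif GGAC, searched on the transcribed strand, was denser under these peaks than in the rest of the same exons. It occurred 4.97, 4.94 and 5.10 times per kb under the peaks of the young hearts and 4.74, 4.79 and 5.11 times in the aged hearts, against 4.16, 4.25, 4.19, 4.23, 4.38 and 4.38 times in the coding sequence of the same exons outside any peak. Every heart had the higher value under its peaks, with a mean difference of 0.679 ± 0.186 per kb (SD, n = 6; p = 0.03125, exact sign-flip permutation test). The ages overlapped, and the density under peaks differed by -0.12 per kb between aged and young hearts (p = 0.4, exact permutation test). Of the peaks 64.9% ± 1.65 held at least 1 GGAC, 33.2% at least 2 and 24.9% GGACT. Of coding peaks of 2 or more blocks, whose median length per heart was 181 to 211 nt against 210 to 240 nt here, 60.3% held GGAC.

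**Figure D5:**
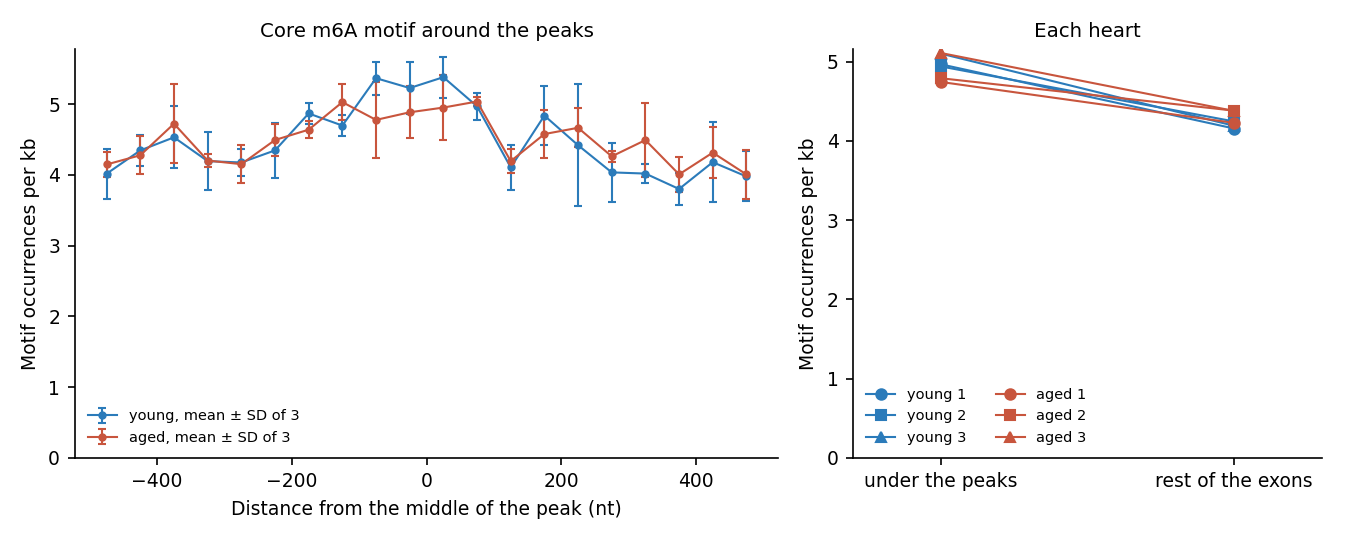
Left, occurrences per kb of the 4-base m6A motif in windows of 50 nt around the middle of the peaks, mean ± SD of 3 hearts per age, within the coding part of the same exon. Right, its density under the peaks and in the rest of the same exons, 1 line per heart. All 6 lines fall from the peaks (4.74 to 5.11) to the rest (4.16 to 4.38).

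The gain in GGAC was modest beside that of other short words. Of the 256 words of 4 bases, GGAC ranked 26 by its ratio under the peaks to the rest of the exons, at 1.16 and above 1 in 6 of 6 hearts. AAAA ranked first at 1.49, followed by AAAG at 1.42, TAAA at 1.39, AAGA at 1.36 and GAAA at 1.34, each above 1 in 6 of 6 hearts. Among words of 5 bases GGACA ranked 19 of 1024 at 1.38 and GGACT ranked 65 at 1.26, while GGACC at 0.922 and GGACG at 0.866 were below 1 in 6 of 6 hearts. Words overlap and are not independent, and the ranks are a description. The peaks held less G and C than the rest of their exons (49.7% against 51.6%) and more purines (54.9% against 52.7%). Without Ttn, a choice made after seeing the data, AAAA still ranked first at 1.51, and GGAC ranked 29 at 1.15.

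The codons with the highest ratios were rich in A. Read in frame, the lysine codon AAA had the highest ratio of peaks to the rest of the exons, at 1.38, followed by the arginine codon AGA at 1.37, the glutamate codon GAA at 1.21 and the isoleucine codon ATA at 1.20, each above 1 in 6 of 6 hearts. Codons of 1 amino acid differed, as the arginine codons CGC at 0.824 and CGG at 0.923 were below 1 in 6 of 6 hearts. Lysine codons made up 7.41% of the codons under peaks and 5.81% of the rest, and glutamate codons 9.09% and 7.96%. Both were higher under peaks in 6 of 6 hearts (p = 0.03125 and, adjusted over 8 comparisons chosen after seeing the data, 0.0833, exact sign-flip permutation test). Cysteine had the lowest ratio, at 0.807. GGAC began at the third base of a codon in 55.8% of its 2355 distinct occurrences under peaks and in 53.0% of 3753 in the rest of the exons, the frame in which its last 3 bases are read as GAC, an aspartate codon. This codon had a ratio of 1.13, above 1 in 6 of 6 hearts.

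Peaks with lower p held fewer GGAC per kb in 5 of 6 hearts. When the peaks of each heart were split into 3 equal parts by p, those with the lowest p held 4.48 ± 0.339 GGAC per kb (SD, n = 6) and those with the highest p 5.48 ± 0.520 (p = 0.0625, adjusted p = 0.0833, exact sign-flip permutation test). AAAA went the other way in 5 of 6 hearts, with 11 ± 1.01 per kb in the strongest part and 9.31 ± 1.75 in the weakest (p = 0.0625, adjusted p = 0.0833, exact sign-flip permutation test). Peak length moved with p as well, from a mean of the hearts' medians of 305.5 nt in the strongest part to 175 nt in the weakest. The share of peaks with at least 1 GGAC was higher in the strongest part, at 73.1% against 56.2%. The part of length in this was not tested. Peaks found in all 6 hearts held 4.80 ± 0.0982 GGAC per kb and those found in 1 heart 5.06 ± 0.554, lower in 4 of 6 hearts (p = 0.3125, exact sign-flip permutation test). For AAAA the peaks found in all 6 hearts were higher in 6 of 6 hearts, at 11.1 against 7.64 per kb (p = 0.03125, adjusted p = 0.0833, exact sign-flip permutation test).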

How the data were processed

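Per the labels, the authors trimmed reads with cutadapt (2.5), aligned them to GRCm38 with HISAT2 (2.1.0) and called peaks per immunoprecipitate and input with exomePeak (2.13.2) at p = 0.05. The deposited p-value of each peak is unadjusted and served here to order or select the peaks of 1 list. The lists hold no counts, so depth and its effect on the number of peaks are unknown.

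Positions are counted from 1. Peaks were placed on GENCODE M21 transcripts, and sequence was read from the RefSeq copy of GRCm38, with Python (3.11.15), numpy (2.4.6) and pysam (0.24.0). Plots were drawn with matplotlib (3.10.9). Functions were tested on simulated data. Young and aged hearts were compared by exact permutation of the age labels (20 assignments, two-sided, smallest p 0.1), and values within hearts by exact sign-flip permutation of their differences (two-sided, smallest p 0.03125 with 6 hearts). A Benjamini-Hochberg adjustment was made over the 9 comparisons with single classes and over the 8 comparisons of motif groups and codons. The main tests were not adjusted for their number, and a p given without an adjusted p is unadjusted.

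The members and gene lists were chosen with earlier results of these data known. Genes named are the 10 with the most peaks, those of the 10 best-ranked regions in all 6 hearts, of the 5 best-ranked regions separating the ages in each direction and of the 5 longest exons, up to 4 per gene list, Ttn, Cmya5, Xirp2, Ryr2, Ank2, Akap13, Brca2 and the 5 leaning most to young hearts. 1 further gene of this rule is not reported here. Alternatives were p at or under 1e-05, equal list lengths, exons from 300 or 800 nt, 50 or 200 nt around codons, GGACT, the wider consensus DRACH, the central 100 nt of peaks, stricter overlaps, the replicate block and each heart left out. Leaving out Ttn and leaving out exons shorter than a peak were added after seeing the data. The inputs' own reads were not used here.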

Additional observations from a re-analysis of the deposited data

How the results depend on the processing

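With only peaks wholly inside an exon per start position, the log2 density ratio of long against shorter exons was 0.073 (p = 0.53125, exact sign-flip permutation test), and its age difference turned to 0.11, or to 0.29 with exons too short for a start position left out. With equal list lengths the age difference turned to -41 for peaks and to -37 for exons, regions in aged hearts alone numbered 16 and in young hearts alone 4, and the median length difference, -9.33 nt as calculated, turned to 50. At p at or under 1e-05 the length difference was 10 nt, the age difference in GGAC 0.0304 per kb, the difference in p rank -1.04 points (p = 0.09375, exact sign-flip permutation test) and 0 regions were in young hearts alone. The length difference was 0.333 nt with exons from 300 nt, 9.67 with those from 800 nt, and ran from -14.5 to 0.5 nt with 1 heart left out, above 0 only without young replicate 1. With at least 2 hearts of an age and 0 of the other, 157 regions were in aged and 13 in young hearts alone. With 50% of the shorter peak shared, 0 were in young hearts alone.

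With 1 heart left out, no p of the sign-flip tests can fall under 0.0625, and all 4 missed 0.05. The log2 density ratio ran from 0.90 to 1.00, the difference in GGAC from 0.633 to 0.733 per kb, in recurrence from 0.311 to 0.352 hearts and in p rank from -5.52 to -4.62 points, all on the side of the full set. Regions in aged hearts alone numbered 64 to 94, with 92 without young replicate 1, 94 without aged replicate 2 and 90 without aged replicate 3. Those in young hearts alone numbered 1 to 5. The age difference in the share of coding peaks ran from -3.76 points without aged replicate 3 to -1.59 without aged replicate 2, that of the log2 density ratio from -0.40 without aged replicate 3 to -0.17 without aged replicate 2, and that of GGAC from -0.235 per kb without aged replicate 3 to -0.0525 without aged replicate 1. The difference ran from 219.8 to 300.3 peaks and from 129.8 to 180.8 exons.

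Whether the replicate numbers pair the samples cannot be told from correlations as small as these. Same-numbered hearts correlated at 0.00726 to 0.058 and hearts of other numbers at -0.0514 to 0.0125. Of the 6 hearts, 5 correlated best with their own number. With the replicate block the differences stayed 256 peaks, -2.58 points of the share, 154 exons, -0.25 of the log2 density ratio, -0.12 GGAC per kb and -9.33 nt by construction, with exact sign-flip p from 0.25 to 1 and no call changed. Depth, which is unknown, limits every count of calls.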
